A study of Homo sapiens with 18 samples.

Results

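RU486 (mifepristone) was set against ethanol vehicle in H295R_GRα cells, a comparison of 5 of the 17 arrays with values in the series: 2 of RU486 (replicates B and C) and 3 of vehicle (replicates A, B and C). The arrays were taken by the line and treatment named in the sample titles. H295R, a steroid-secreting cell line, was derived from an adrenocortical tumour. The H295R_GRα line carries the vector pcDNA4_GRα stably and without induction, and so over-expresses GRα, the form of the glucocorticoid receptor that binds hormone (gene NR3C1). H295R_Control cells carry the empty vector, and the labels do not say whether either line is 1 clone or a pool. Cells of both lines had been starved of serum and then held for 6 h in RU486 at 100 nM, dexamethasone at 100 nM or ethanol. Every group was planned with 3 samples, and GRα RU486 replicate A has no values because, per its label, the array failed quality control.

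The glucocorticoid receptor waits in the cytoplasm with chaperones of the HSP90 complex, enters the nucleus when a steroid binds, and raises or lowers genes by binding DNA or other transcription factors there. Dexamethasone is a synthetic full agonist. RU486 binds the same pocket with high affinity but holds the receptor in a form that mostly fails to recruit coactivators, so it blocks agonists. In some cells, more often where receptor is plentiful, it is known to act as a partial agonist on part of the target genes. RU486 also blocks the progesterone receptor and, more weakly, the androgen receptor. The comparison asks whether RU486 acts on its own, without an agonist, where the receptor is over-expressed.

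All values are log2 RMA values, differences are RU486 minus the other group on the log2 scale, and errors of differences are standard errors (SE) from 1 limma fit over 17 arrays. A gene was called at a limma p below 0.05 after Benjamini-Hochberg adjustment over 18417 genes. The labels and the line could be checked on a few genes. NR3C1 read 8.02 and 7.98 with RU486, against 7.98, 7.90 and 7.94 with vehicle in GRα cells, and lay between 7.23 and 7.46 in the 9 arrays of control cells. The RU486 arrays thus carry the higher receptor signal of their line, and with RU486 NR3C1 differed from vehicle by 0.05 ± 0.07 (SE; adjusted p = 0.855). All 12 adrenocortical markers were measured, and their summed level (log2) was 12.43 and 12.50 in the RU486 arrays, against 12.42 to 12.47 in the vehicle arrays. Of markers of other cell types, 0 of 10 fibroblast, 10 endothelial, 11 leukocyte, 9 epithelial and 9 chromaffin genes were called. Their summed levels in the RU486 arrays lay inside or overlapped the vehicle range, except that the endothelial sum was 8.66 and 8.69 with RU486, against 8.72 to 8.78 with vehicle. In such bulk RNA, fewer cells of a type and less RNA per cell cannot be told apart, and the part of these markers in the results was not tested. GRα vehicle replicate B stands apart: its correlation with the other vehicle arrays was 0.990, against 0.996 between replicates A and C, and its array weight of 0.194 was the lowest of the 17. For results that move when it is left out, the value without it is given beside them in many cases.

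No gene was called. RU486 gave 0 calls of 18417 genes in GRα cells (0% of the genes tested), and the lowest adjusted p was 0.144. At an unadjusted limma p below 0.05 stood 1572 genes, or 8.54%, of which 600 were higher (3.26%) and 972 lower (5.28%) with RU486, where 921 are due by chance. Without GRα vehicle B the number was 1195, with 462 higher and 733 lower, and calls stayed at 0. The RU486 and vehicle arrays did not overlap for 3753 genes (20.4%). For groups of 2 and 3 arrays, a share near this size is due by chance, so separation alone is no sign of an effect. The median change over all genes was −0.01. With 2 arrays against 3, the 95% interval of a gene reached a median of 0.20 to either side, and a lone gene of median spread would have needed a change of about 0.66 to be called. For a gene of that spread, smaller differences were not detectable by this rule.

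**Figure D1:**
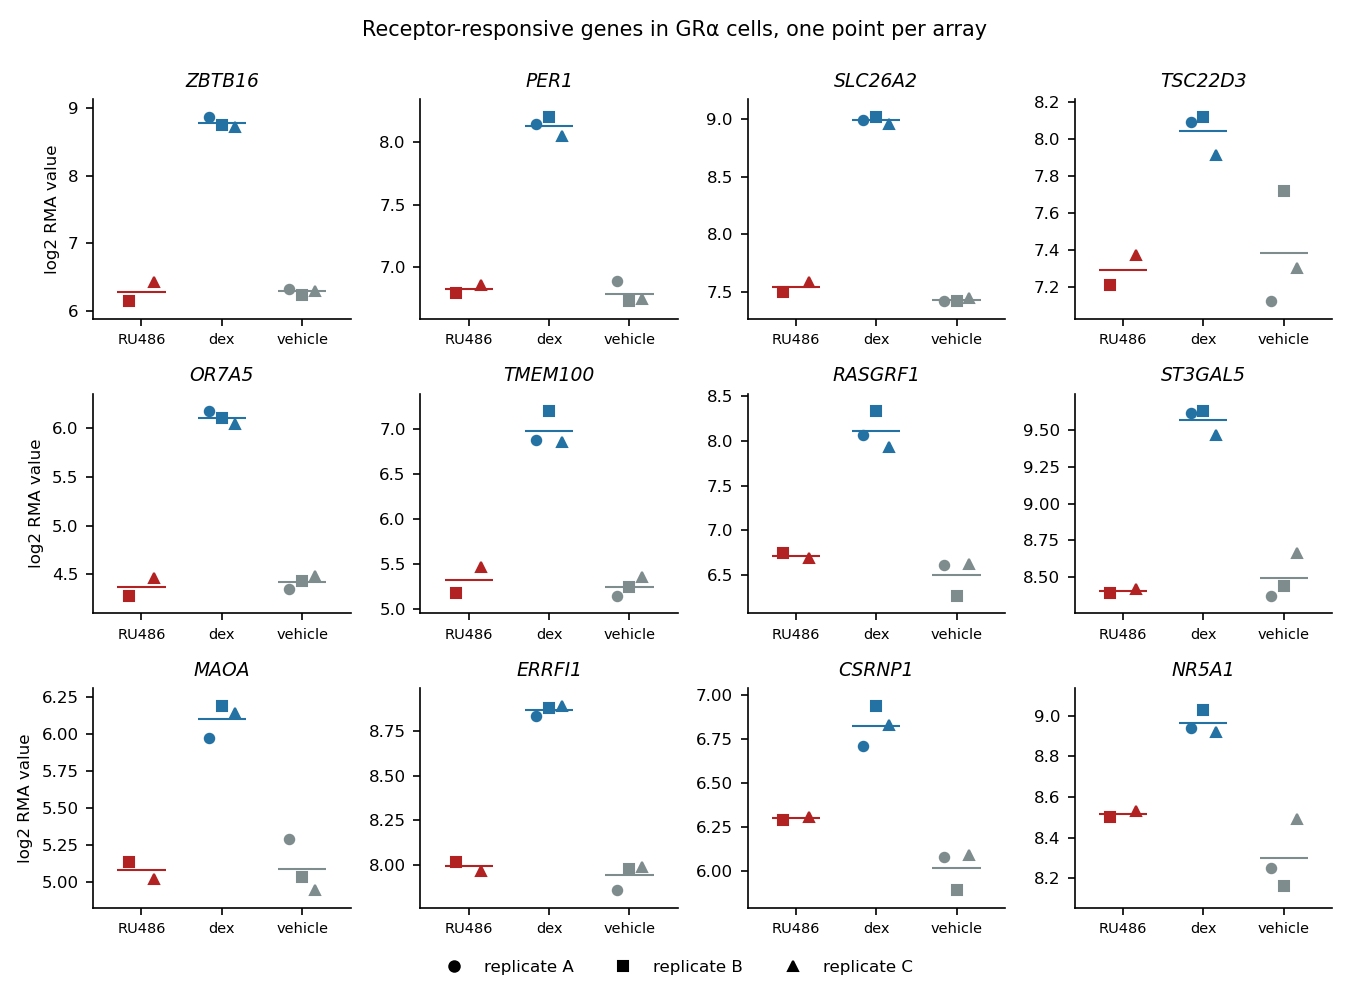
Log2 RMA values (y axis) of 12 genes in each GRα array under RU486, dexamethasone and vehicle (x axis); symbols mark the replicate and short lines the group mean. In 10 panels the RU486 points lie at or near the vehicle points and more than 0.5 log2 under the dexamethasone points. Among these 10, the RU486 points of SLC26A2 and RASGRF1 lie above every vehicle point. For CSRNP1 and NR5A1 the RU486 points also lie between vehicle and dexamethasone.

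Agonism was read first from the genes that dexamethasone changed in control cells, since that contrast shares no array with the GRα comparison. The 2 contrasts do share the fit's estimate of spread, which entered both the choice of genes and the width of the intervals. Dexamethasone raised 39 genes in control cells (0.212% of the genes tested) and lowered 9 (0.0489%). Among the 39 were ZBTB16, a zinc finger transcription repressor, PER1, a circadian clock repressor, SLC26A2, a sulfate transporter, ERRFI1, which dampens signalling by the EGF receptor, and FDX1, the electron donor of the mitochondrial steroid hydroxylases. In GRα cells the 39 genes had a median RU486 change of 0.02, with an interquartile range of −0.05 to 0.06 and a range of −0.33 to 0.25, beside a median of −0.01 over all genes. The median was −0.03 without GRα vehicle B. The 95% interval of the RU486 change included 0 for 34 of the 39, lay above 0 for 2 and below 0 for 3. For all 39 genes the upper end of that interval lay below the dexamethasone effect in control cells, and for 27 it lay below 0.5 times that effect. The dexamethasone effect was taken without its own error, and its size helped to choose the genes. The median RU486 change of the same genes in control cells was −0.04. That contrast shares the control vehicle arrays with the choice of genes, so its value is not independent of the choice.

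**Figure D2:**
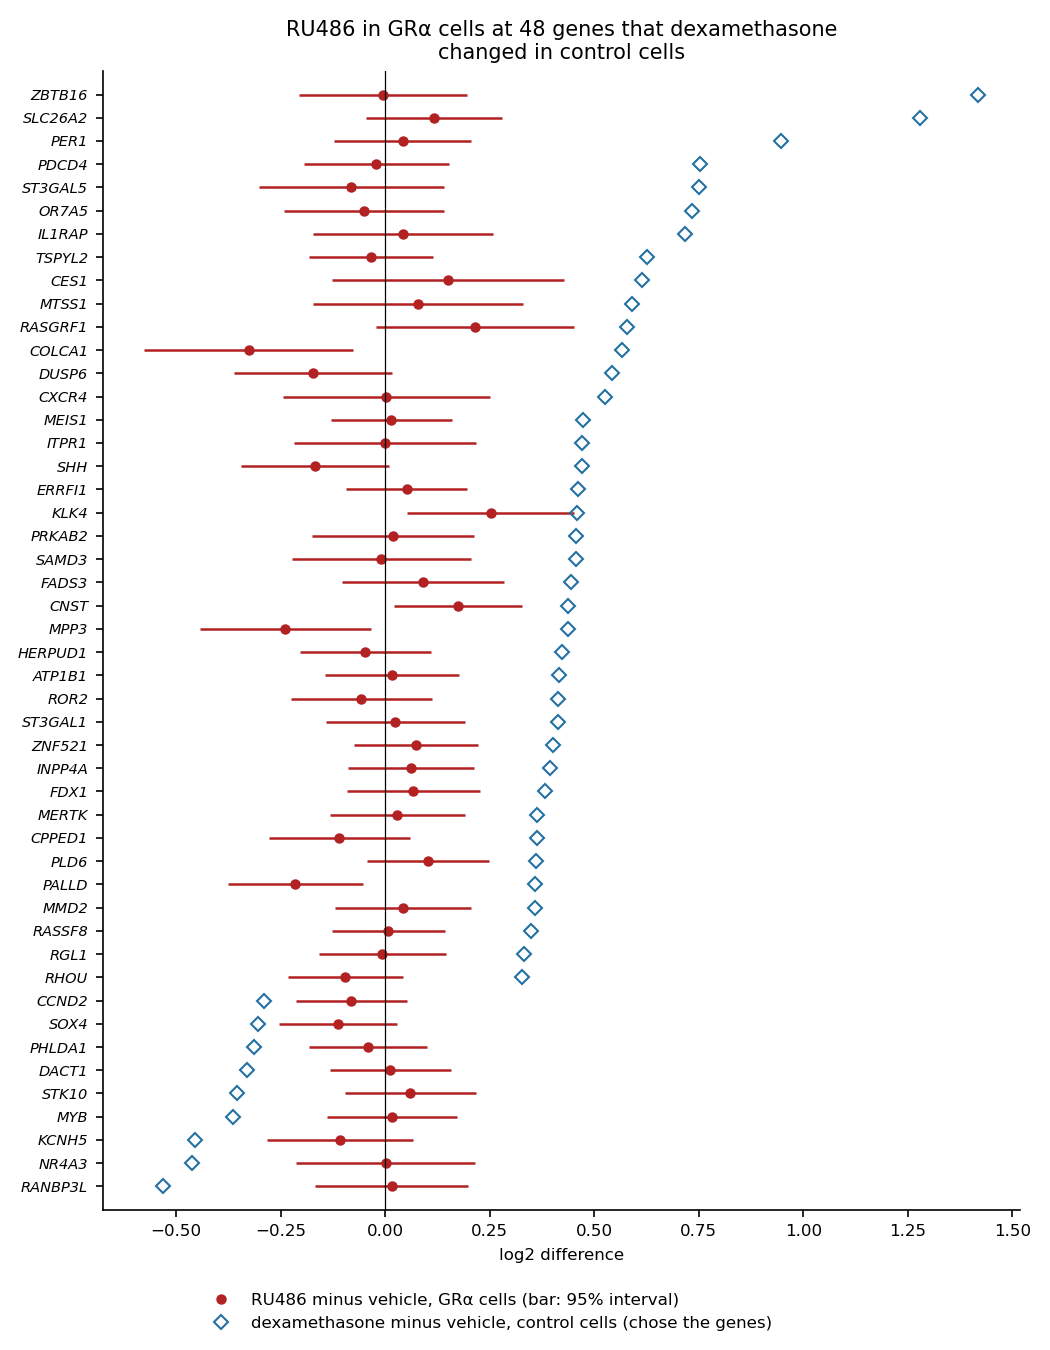
Log2 difference (x axis) of the 48 genes that dexamethasone changed in control cells (y axis, ordered by that change, open diamonds); filled points and bars give the RU486 minus vehicle difference in GRα cells with its 95% interval. The RU486 points scatter about 0, between −0.33 and 0.25, while the diamonds run from −0.53 to 1.42.

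The genes with the largest dexamethasone effects show this array by array. ZBTB16 read 6.14 and 6.42 with RU486, 8.87, 8.75 and 8.72 with dexamethasone, and 6.33, 6.24 and 6.29 with vehicle in GRα cells. Its RU486 arrays lay around the vehicle arrays, with a difference of −0.01 (95% interval −0.21 to 0.20). PER1 read 6.80 and 6.86 with RU486, 8.14, 8.20 and 8.05 with dexamethasone, and 6.89, 6.73 and 6.75 with vehicle, a difference of 0.04 from vehicle (−0.12 to 0.21). SLC26A2 read 7.50 and 7.59 with RU486, 8.99, 9.02 and 8.96 with dexamethasone, and 7.42, 7.42 and 7.45 with vehicle. Both SLC26A2 arrays of RU486 stood above all vehicle arrays, by 0.12 on average (−0.04 to 0.28, adjusted p = 0.693), whereas dexamethasone had raised it by 1.28 in control cells. OR7A5, an olfactory receptor gene, read 4.28 and 4.46 with RU486, 6.17, 6.10 and 6.04 with dexamethasone, and 4.35, 4.43 and 4.48 with vehicle. IL1RAP, an accessory chain of the interleukin-1 receptor, read 5.70 and 5.57 with RU486, 6.43, 6.67 and 6.58 with dexamethasone, and 5.59, 5.42 and 5.76 with vehicle. For both genes the RU486 arrays overlapped the vehicle arrays and stayed below every dexamethasone array.

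The 5 responders whose interval missed 0 went both ways. KLK4, a secreted kallikrein-related protease, read 6.96 and 6.92 with RU486, against 6.78, 6.47 and 6.81 with vehicle, a difference of 0.25 (0.05 to 0.45, adjusted p = 0.532). Without GRα vehicle B the difference was 0.14. CNST, which codes for a connexin-recycling protein, read 7.22 and 7.02 with RU486, against 6.88, 7.02 and 6.93 with vehicle, a difference of 0.17 (0.02 to 0.33, adjusted p = 0.553). One CNST array of RU486 was at the level of the highest vehicle array. COLCA1 read 5.78 and 6.00 with RU486, against 6.33, 6.14 and 6.18 with vehicle, a difference of −0.33 (−0.58 to −0.08, adjusted p = 0.522). MPP3, a scaffold protein of the MAGUK family, differed by −0.24 (adjusted p = 0.553) and PALLD, the actin-bundling protein palladin, by −0.21 (adjusted p = 0.522). COLCA1, MPP3 and PALLD thus lay on the side opposite to their dexamethasone response, with no call.

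The 9 genes that dexamethasone lowered in control cells had a median RU486 change of 0.00 in GRα cells (−0.05 without GRα vehicle B, where that over all genes was −0.01), with a range of −0.11 to 0.06, and all 9 intervals included 0. For all 9 the end of the interval in the dexamethasone direction fell short of the control-line effect, and for 5 it fell short of 0.5 times it. PHLDA1, a pleckstrin-domain protein linked to growth arrest, read 9.58 and 9.58 with RU486, 9.13, 9.14 and 9.10 with dexamethasone, and 9.61, 9.60 and 9.65 with vehicle. MYB, a proto-oncogene transcription factor, read 8.35 and 8.25 with RU486, 7.92, 7.82 and 7.84 with dexamethasone, and 8.34, 8.16 and 8.36 with vehicle. The RU486 arrays of MYB overlapped vehicle, those of PHLDA1 lay just below it, by −0.04 ± 0.07, and both genes stayed clear of dexamethasone.

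RefSeq promoter sequences (build GRCh38.p14, 250 bases before to 50 after the annotated start) were at hand for 29 of the 39 raised and 7 of the 9 lowered genes, and are used to show what the classical receptor element looks like near these starts. The motif searched was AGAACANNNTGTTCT, the consensus glucocorticoid response element, which reads the same on both strands in its fixed letters. It was found in full in 0 of the 29 promoters and in 1 of all 27305 (0.00366%). With up to 2 mismatches in the fixed letters it was found in 1 of the 29 (3.45%), FDX1, in 0 of the 7, and in 392 of all promoters (1.44%). The hexamer AGAACA, searched on both strands and contained in the full motif, was found in 4 of the 29 (13.8%), in 0 of the 7 and in 14.9% of all promoters. The FDX1 match carries the substitution T12G, counted from the first base of the motif. The promoter of FDX1, on chr11:110429698-110429997, plus strand, is printed with that match in capitals, and the promoter of PER1, on chr17:8152355-8152654, minus strand, is printed for a strong responder without that hexamer in the window:
FDX1: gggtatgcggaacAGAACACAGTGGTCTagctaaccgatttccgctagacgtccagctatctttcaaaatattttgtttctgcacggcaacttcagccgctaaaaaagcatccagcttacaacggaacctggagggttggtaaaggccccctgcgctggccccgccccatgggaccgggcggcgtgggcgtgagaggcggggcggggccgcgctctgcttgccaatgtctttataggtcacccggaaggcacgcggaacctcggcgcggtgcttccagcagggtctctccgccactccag
PER1: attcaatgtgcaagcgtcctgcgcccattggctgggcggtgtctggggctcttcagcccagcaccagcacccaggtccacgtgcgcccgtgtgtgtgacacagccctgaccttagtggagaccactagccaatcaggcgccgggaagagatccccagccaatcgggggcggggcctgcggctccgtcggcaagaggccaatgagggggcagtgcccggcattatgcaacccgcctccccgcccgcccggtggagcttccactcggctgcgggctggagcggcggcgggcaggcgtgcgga
Receptor elements often lie far outside such windows, and a match is a run of letters and not a measured binding site. FDX1 itself read 8.34 and 8.40 with RU486, 8.48, 8.55 and 8.53 with dexamethasone, and 8.40, 8.15 and 8.36 with vehicle in GRα cells, a difference of 0.07 from vehicle (−0.09 to 0.23).

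The ligands were then compared directly at the same dose and time within GRα cells, which leaves the vehicle arrays out of the contrast. They were the only pair of compounds compared. With RU486, 28 genes were higher (0.152%) and 137 lower (0.744%) than with dexamethasone. Of the 39 genes chosen in control cells, 31 were called lower with RU486 and 0 higher, with a median difference of −0.59. Of the 9, 4 were called higher with RU486 (PHLDA1, DACT1, MYB and RANBP3L), with a median difference of 0.38. ZBTB16 was 5.65-fold lower with RU486 than with dexamethasone (log2 −2.50 ± 0.10 SE, adjusted p = 7.17e-11), OR7A5 3.33-fold, TMEM100 3.14-fold, SLC26A2 2.72-fold and PER1 2.46-fold lower. The call of each of these 5 genes held without each RU486 and dexamethasone array in turn. Dexamethasone changed 372 genes against vehicle in GRα cells (2.02%), a contrast that shares the vehicle arrays with that of RU486, so only values are set side by side here. For TSC22D3, which codes for the anti-inflammatory leucine zipper GILZ, the RU486 values of 7.21 and 7.37 stood beside 8.09, 8.12 and 7.91 with dexamethasone and 7.12, 7.72 and 7.30 with vehicle. For MAOA, monoamine oxidase A, 5.13 and 5.02 with RU486 stood beside 5.97, 6.19 and 6.14 with dexamethasone and 5.29, 5.03 and 4.94 with vehicle. For RASGRF1, a guanine nucleotide exchange factor of RAS, 6.75 and 6.69 with RU486 stood beside 8.07, 8.33 and 7.93 with dexamethasone and 6.61, 6.27 and 6.63 with vehicle. The RASGRF1 arrays of RU486 lay above all vehicle arrays by 0.21 on average (95% interval −0.02 to 0.45), and by 0.10 without GRα vehicle B.

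The other genes with the largest called differences below dexamethasone showed the same order of arrays. PRKCH, a protein kinase C isoform, read 6.66 and 6.56 with RU486, 7.85, 7.93 and 7.72 with dexamethasone, and 6.79, 6.46 and 6.73 with vehicle. ST3GAL5, the sialyltransferase that makes ganglioside GM3, read 8.39 and 8.42 with RU486, 9.62, 9.63 and 9.47 with dexamethasone, and 8.37, 8.44 and 8.66 with vehicle. NNMT, which methylates nicotinamide, read 5.75 and 5.75 with RU486, 6.79, 6.68 and 6.84 with dexamethasone, and 5.88, 5.54 and 5.77 with vehicle. In all 3 the RU486 arrays overlapped vehicle and had called differences of −1.02 to −1.22 from dexamethasone.

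Of the 28 genes called higher with RU486 than with dexamethasone, the 10 largest differences ran from 0.41 to 0.55. In 7 of them RU486 lay within 0.04 of vehicle on average. INPP4B, a phosphoinositide phosphatase, read 8.75 and 8.77 with RU486, 8.28, 8.38 and 8.34 with dexamethasone, and 8.64, 8.73 and 8.82 with vehicle. SNCAIP, which codes for synphilin-1, read 8.20 and 8.14 with RU486, 7.73, 7.72 and 7.62 with dexamethasone, and 8.22, 7.89 and 8.30 with vehicle. REG4, a secreted lectin, ST8SIA4, a polysialyltransferase, PHLDA1, MYB and RANBP3L likewise differed from vehicle by −0.04 to 0.02. For ANP32D, RNF182 and SCARNA23 the RU486 arrays stood above vehicle as well. ANP32D, of the ANP32 family, read 5.39 and 5.35 with RU486, 4.98, 4.76 and 4.73 with dexamethasone, and 5.01, 5.24 and 4.94 with vehicle, with a called 0.55 ± 0.09 over dexamethasone (adjusted p = 0.00459). RNF182, a RING-type ubiquitin ligase, read 7.97 and 7.94 with RU486, 7.51, 7.48 and 7.57 with dexamethasone, and 7.79, 7.59 and 7.79 with vehicle. Of these 10 calls, only that of PHLDA1 held in all 5 fits with an RU486 or dexamethasone array left out.

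Some named genes lay between vehicle and dexamethasone, SLC26A2 and RASGRF1 above among them. How many of all genes did so was not counted, and RU486 and vehicle arrays did not overlap for 20.4% of all genes. CSRNP1, a cysteine- and serine-rich nuclear protein, read 6.29 and 6.31 with RU486, 6.71, 6.94 and 6.83 with dexamethasone, and 6.08, 5.89 and 6.09 with vehicle. RU486 exceeded vehicle by 0.28 ± 0.08 (SE; adjusted p = 0.513) and lay below dexamethasone by a called −0.52 ± 0.08 (adjusted p = 0.00132). In control cells CSRNP1 differed by −0.14 ± 0.07 with RU486, and the difference between the lines was 0.41 (adjusted p = 0.983). NR5A1, which codes for steroidogenic factor 1, the main transcription factor of adrenocortical identity, read 8.50 and 8.53 with RU486, 8.94, 9.03 and 8.92 with dexamethasone, and 8.25, 8.16 and 8.49 with vehicle. RU486 exceeded vehicle by 0.21 ± 0.09 (SE; adjusted p = 0.553), and by 0.14 without GRα vehicle B. NR5A1 was lower with RU486 than with dexamethasone by a called −0.45 ± 0.09 (adjusted p = 0.0176), a call that held in 1 of 5 fits with an RU486 or dexamethasone array left out. In control cells it differed by −0.16 ± 0.08 with RU486, and the lines differed by 0.38 (adjusted p = 0.999). Neither CSRNP1 nor NR5A1 was called against vehicle, and neither line difference was called. For ANKRD49, an ankyrin repeat gene, the RU486 arrays overlapped those of dexamethasone: it read 7.17 and 7.28 with RU486, 7.29, 7.22 and 7.22 with dexamethasone, and 6.77, 6.82 and 6.94 with vehicle.

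**Figure D3:**
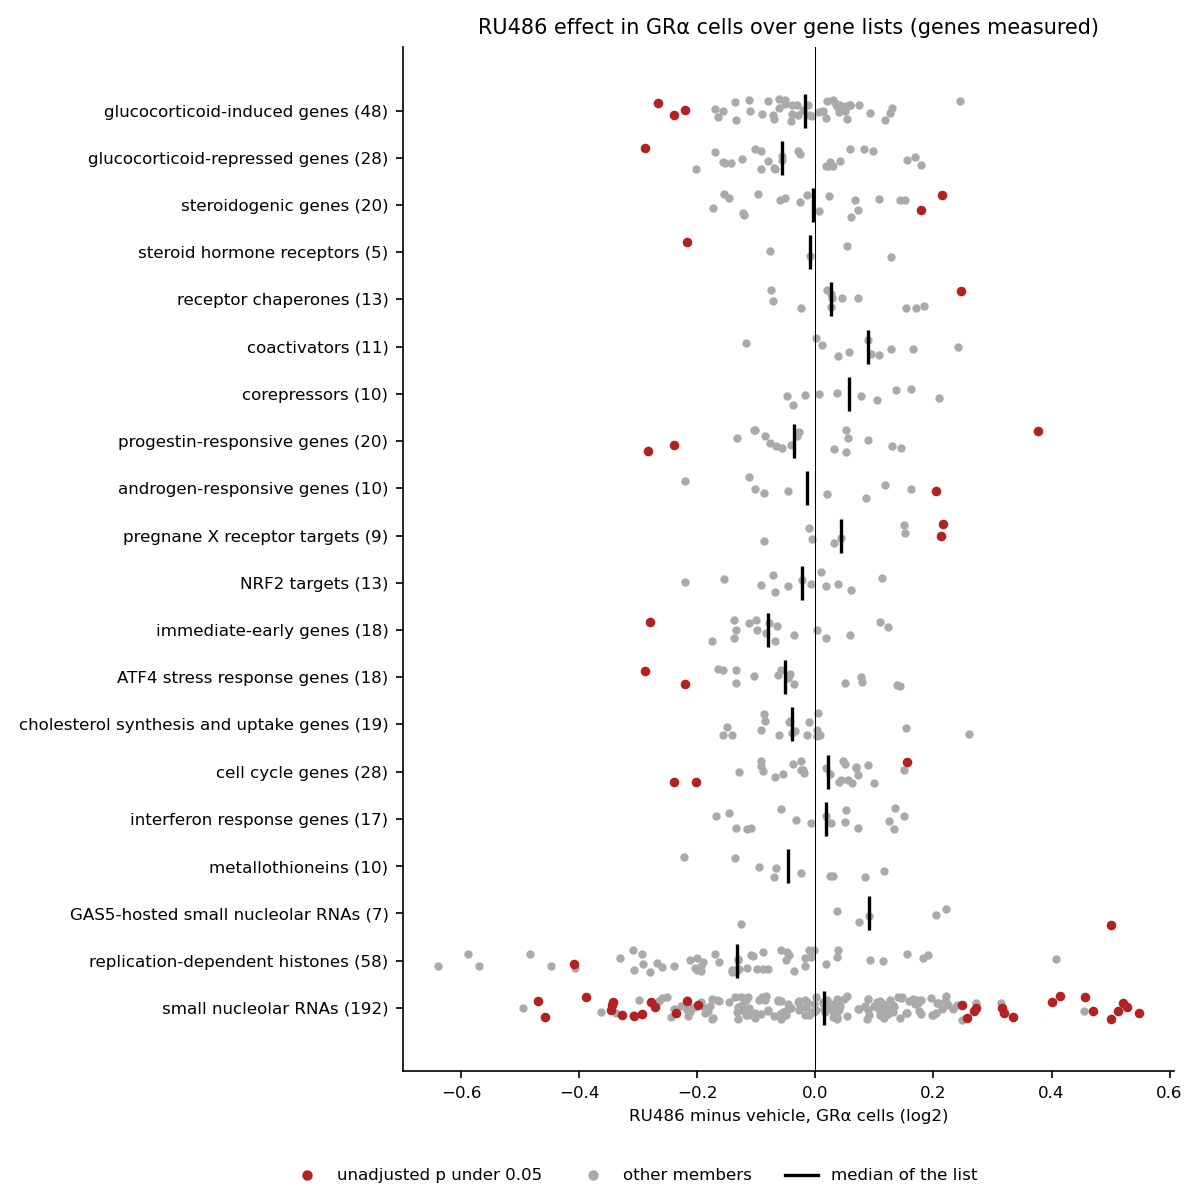
RU486 minus vehicle difference in GRα cells (x axis, log2) of the members of 20 gene lists (y axis, with the number measured); red points have an unadjusted p below 0.05 and black bars are list medians. The medians run from −0.13 for histones to 0.09 for the small nucleolar RNAs hosted by GAS5; without GRα vehicle B these 2 medians were 0.06 and 0.22.

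Lists of genes known from other systems held 0 calls in each of 26 lists. Of 48 measured glucocorticoid-induced genes, 0 were higher and 3 lower at the unadjusted limit, beside 3.26% higher and 5.28% lower over all genes, and 0 and 2 without GRα vehicle B. The list median was −0.02. The 3 were KLF9, a Krüppel-like repressor, at −0.24 (adjusted p = 0.513), CEBPB, a bZIP transcription factor, at −0.22, and RASD1, a RAS-like GTPase, at −0.27. KLF9 read 6.56 and 6.54 with RU486, against 6.83, 6.84 and 6.71 with vehicle, so its RU486 arrays lay below all vehicle arrays. Over all genes, 20.4% separated in this way, higher or lower. DUSP1, a MAP kinase phosphatase, and SGK1, a kinase of sodium transport, differed by −0.04 ± 0.08 and 0.07 ± 0.08. Against dexamethasone, 15 of the 48 were called lower and 1 higher with RU486, where 0.744% and 0.152% of all genes were. Of 28 glucocorticoid-repressed genes, 0 were higher and 1 lower at the unadjusted limit, the chemokine gene CCL20 at −0.29, with a median of −0.06. Of 18 immediate-early genes 1 stood at that limit, IER2 at −0.28 (adjusted p = 0.514), with a list median of −0.08.

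Of 20 steroidogenic genes, 2 stood at the unadjusted limit, NR5A1 and CYB5A, the cytochrome b5 that favours the lyase step of CYP17A1, and the median was 0.00. Of all genes, 8.54% stood there, and without GRα vehicle B neither NR5A1 nor CYB5A did, with 0 of the 20 higher and 1 lower. STAR, which carries cholesterol into mitochondria, read 9.43 and 9.53 with RU486, against 9.28, 9.56 and 9.41 with vehicle, a difference of 0.06 ± 0.08. CYP17A1, which makes androgen and cortisol precursors, read 9.87 and 9.94 with RU486, against 9.84, 9.58 and 9.87 with vehicle, a difference of 0.14 ± 0.08. CYP11A1, the side-chain cleavage enzyme, differed by −0.12 ± 0.09, HSD3B2 by −0.17 ± 0.17, CYP11B1 by −0.10 ± 0.13 and CYP11B2 by 0.01 ± 0.12. Vehicle and RU486 arrays overlapped for STAR, CYP11A1, HSD3B2, CYP11B1 and CYP11B2, and CYP17A1 differed by 0.05 without GRα vehicle B.

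Receptors that RU486 also binds, and partners of the receptor, were described next. PGR, the progesterone receptor, read 7.09 and 7.01 with RU486, against 6.96, 7.03 and 6.77 with vehicle, a difference of 0.13 ± 0.08. NR3C2, the mineralocorticoid receptor, differed by −0.01 ± 0.11, ESR1 by −0.08 ± 0.09 (0.20 with its probe sets averaged) and ESR2 by −0.22 ± 0.08 (adjusted p = 0.522). Of 20 progestin-responsive genes, 1 was higher and 2 lower at the unadjusted limit, where 3.26% of all genes were higher and 5.28% lower. The higher one was PRL, prolactin, with 5.31 and 5.45 under RU486, against 5.03, 4.89 and 5.10 under vehicle, a difference of 0.38 ± 0.11 (adjusted p = 0.513), and the lower ones were CITED2 and KLF9. SLC45A3 was the 1 of 10 androgen-responsive genes at that limit, at 0.21. Of 13 receptor chaperones 1 stood there, PPID, the cyclophilin of HSP90 complexes, at 0.25. Of 11 coactivators and 10 corepressors 0 did. The coactivator median was 0.09, or −0.06 without GRα vehicle B, so its sign turned on that array.

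RU486 is a ligand of the pregnane X receptor in liver cells, and 2 of its 9 measured targets stood at the unadjusted limit, where 8.54% of all genes did. Without GRα vehicle B, 0 of the 9 stood there. CYP2C8, a drug-metabolizing cytochrome, read 8.08 and 8.04 with RU486, against 7.93, 7.75 and 7.86 with vehicle, a difference of 0.22 ± 0.09 (adjusted p = 0.553), and 0.17 without GRα vehicle B. ABCC2, an export pump, differed by 0.21 ± 0.10. Stress lists also held 0 calls: 0 of 13 NRF2 targets, 0 of 19 cholesterol genes, 0 of 17 interferon genes and 0 of 10 metallothioneins stood at the unadjusted limit, and 2 of 18 ATF4 targets did, SESN2 at −0.29 and CEBPB. Of 28 cell cycle genes 1 was higher, CCNB2 at 0.16, and 2 were lower, the replication licensing genes CDT1 at −0.24 and MCM2 at −0.20. Over 58 replication-dependent histone genes the median change was −0.13, and 0.06 without GRα vehicle B. The median histone level was 8.48 in that array, against 7.76 and 7.80 in vehicle replicates A and C and 7.97 and 7.79 in the RU486 arrays, so the direction of the histone list was set by 1 vehicle array.

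**Figure D4:**
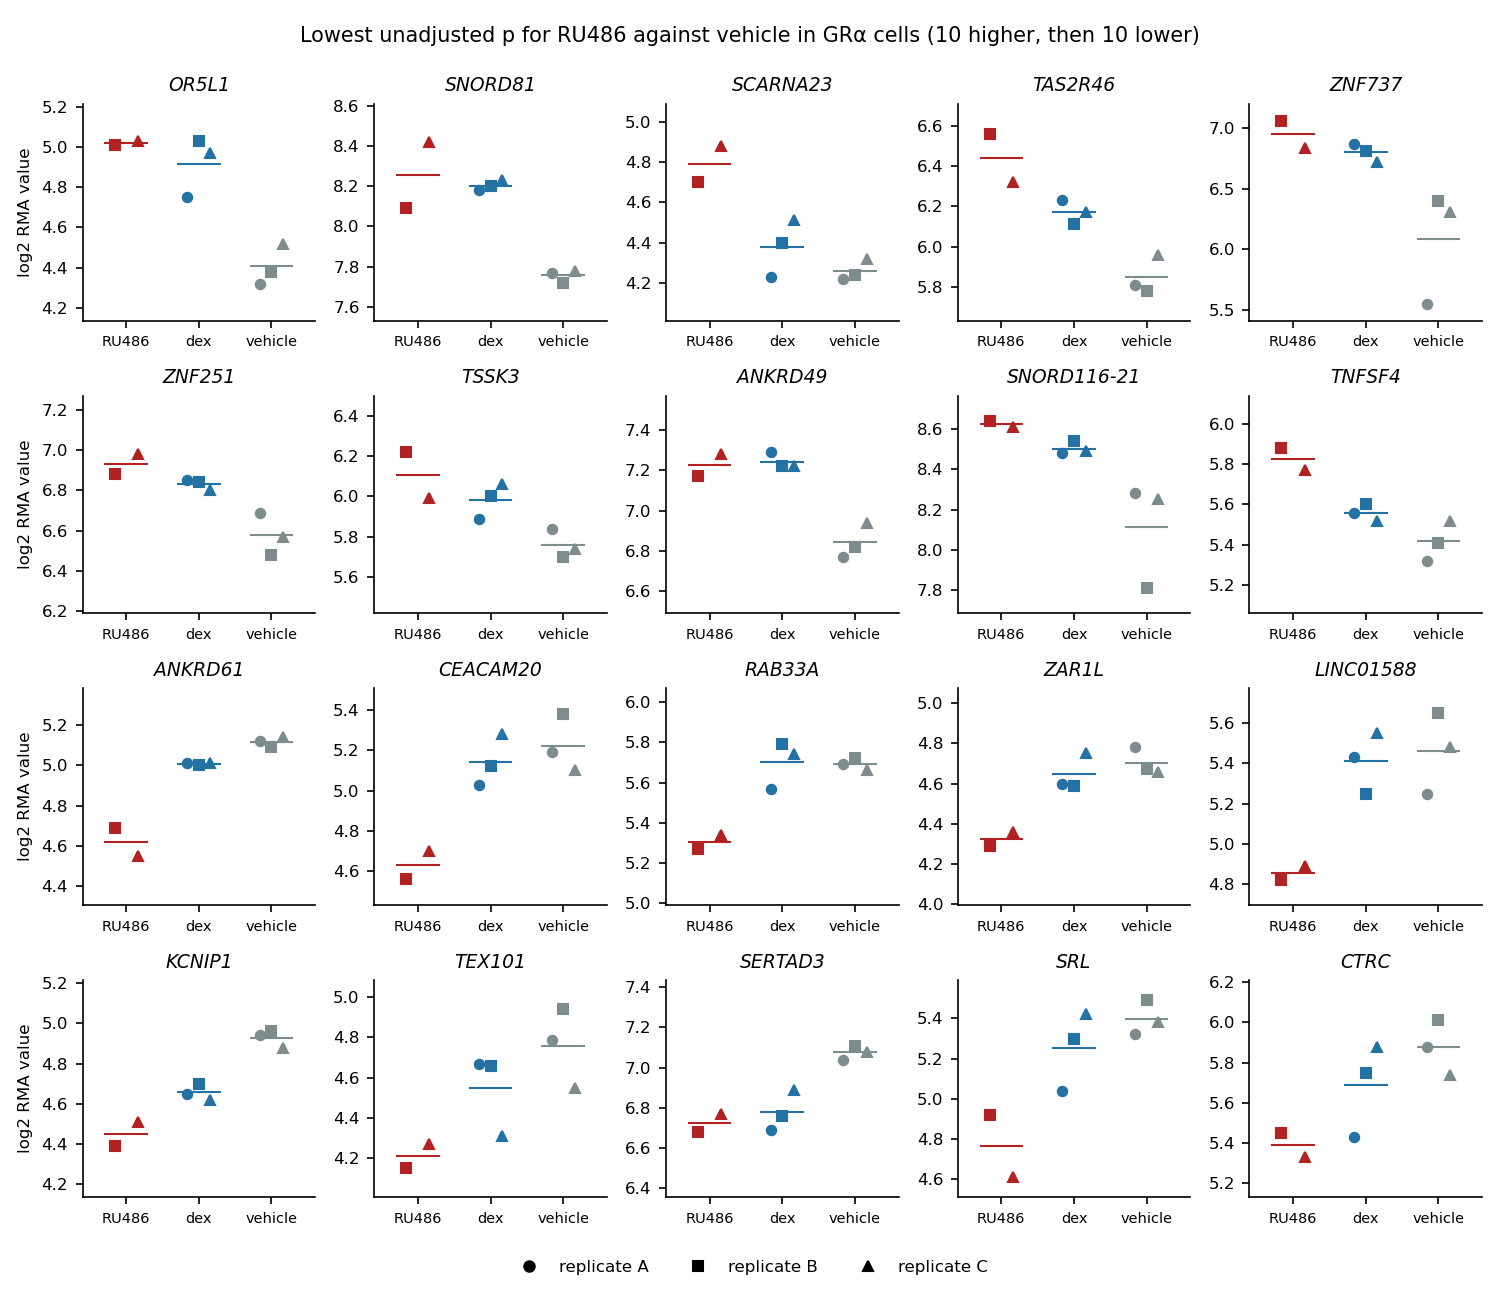
Log2 RMA values (y axis) by GRα array under RU486, dexamethasone and vehicle (x axis) of the 10 higher and 10 lower genes with the lowest unadjusted p for RU486 against vehicle; symbols mark the replicate and short lines the group mean. In all 20 panels the RU486 points lie outside the range of the vehicle points, because only genes whose arrays did not overlap were taken. In some panels, such as SNORD81, ANKRD49 and SERTAD3, the dexamethasone points overlap those of RU486.

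The 20 genes with the lowest unadjusted p whose arrays did not overlap are given as values, since none was called. Of the 10 higher ones, SNORD81, SCARNA23 and SNORD116-21 are small noncoding RNAs. SNORD81, a box C/D small nucleolar RNA from an intron of GAS5, read 8.09 and 8.42 with RU486, 8.18, 8.20 and 8.23 with dexamethasone, and 7.77, 7.72 and 7.78 with vehicle. Its difference from vehicle was 0.50 ± 0.09 (SE; 1.41-fold, adjusted p = 0.144), and its 6 arrays of RU486 and vehicle in control cells lay between 7.56 and 7.76. The other 6 measured small nucleolar RNAs of GAS5 were not at the unadjusted limit, with SNORD77 at 0.22, SNORD75 at 0.20, SNORD79 at 0.09, SNORD78 at 0.07, SNORD44 at 0.04 and SNORD74 at −0.13. Without GRα vehicle B, SNORD77 differed by 0.44 and 2 of the 7 stood at that limit, and the list median was 0.22 in place of 0.09. OR5L1, an olfactory receptor gene, read 5.01 and 5.03 with RU486, 4.75, 5.03 and 4.97 with dexamethasone, and 4.32, 4.38 and 4.52 with vehicle, a difference of 0.61 ± 0.11 (adjusted p = 0.144). TAS2R46, a bitter taste receptor gene, read 6.56 and 6.32 with RU486, 6.23, 6.11 and 6.17 with dexamethasone, and 5.81, 5.78 and 5.96 with vehicle. SCARNA23, a small Cajal body RNA, read 4.70 and 4.88 with RU486, 4.23, 4.40 and 4.51 with dexamethasone, and 4.22, 4.24 and 4.32 with vehicle, so RU486 stood above both other groups. It was also called higher with RU486 than with dexamethasone (0.41 ± 0.09, adjusted p = 0.0488). ZNF737 had the largest change of the 20, 0.86, with 7.06 and 6.84 under RU486, against 5.55, 6.40 and 6.31 under vehicle. The remaining higher genes, ZNF251, TSSK3, ANKRD49, SNORD116-21 and TNFSF4, differed by 0.35 to 0.51.

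The 10 lower genes differed by −0.35 to −0.63. ANKRD61, an ankyrin repeat gene, read 4.69 and 4.55 with RU486, 5.01, 5.00 and 5.01 with dexamethasone, and 5.12, 5.09 and 5.14 with vehicle. Its difference was −0.50 ± 0.08 from vehicle (adjusted p = 0.144) and a called −0.39 ± 0.08 from dexamethasone (adjusted p = 0.0294). CEACAM20, a cell adhesion gene, read 4.56 and 4.70 with RU486, 5.03, 5.12 and 5.28 with dexamethasone, and 5.19, 5.38 and 5.10 with vehicle, with a called −0.52 ± 0.11 from dexamethasone (adjusted p = 0.0273). RAB33A, a Golgi-associated RAB GTPase, read 5.27 and 5.34 with RU486, 5.57, 5.79 and 5.74 with dexamethasone, and 5.69, 5.72 and 5.66 with vehicle, with a called −0.39 ± 0.07 from dexamethasone (adjusted p = 0.0103). LINC01588, a long noncoding RNA, and ZAR1L, a relative of a maternal-effect gene, were likewise called lower with RU486 than with dexamethasone, by −0.56 and −0.32. In these 5 genes RU486 lay below vehicle and dexamethasone alike. The calls against dexamethasone share the RU486 arrays with the vehicle comparison, so they add only that those 2 arrays also stood below the 3 dexamethasone arrays. In 5 fits with an RU486 or dexamethasone array left out, the call held in 2 for RAB33A, 1 for CEACAM20, 1 for LINC01588, and 0 for ANKRD61 and ZAR1L. KCNIP1, TEX101, SERTAD3, SRL and CTRC completed the 10. SERTAD3, a transcription coregulator, read 6.68 and 6.77 with RU486, 6.69, 6.76 and 6.89 with dexamethasone, and 7.04, 7.11 and 7.08 with vehicle, so both ligands lay below vehicle. The ligands share those vehicle arrays, so their differences are not independent.

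Differences of at least 1 log2 were measured for 2 genes, named after their values were seen. RNY1, a Y RNA of the Ro particle, read 6.12 and 5.80 with RU486, 5.59, 5.04 and 5.37 with dexamethasone, and 5.20, 4.87 and 4.68 with vehicle. Its difference from vehicle was 1.04 ± 0.25 (SE; adjusted p = 0.391), against −0.01 ± 0.22 in control cells. PARM1-AS1, an antisense RNA, read 6.22 and 4.87 with RU486, against 4.18, 4.80 and 4.65 with vehicle, a difference of 1.01 ± 0.32 (adjusted p = 0.513). The high RU486 array of PARM1-AS1 stood alone, and the difference was 0.33 without RU486 replicate B and 1.68 without RU486 replicate C. The largest difference downwards was that of CTDP1-DT, a divergent transcript, with 5.04 and 4.76 under RU486, against 5.56, 6.32 and 5.24 under vehicle (−0.81 ± 0.27, adjusted p = 0.513). It was −0.50 without GRα vehicle B.

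**Figure D5:**
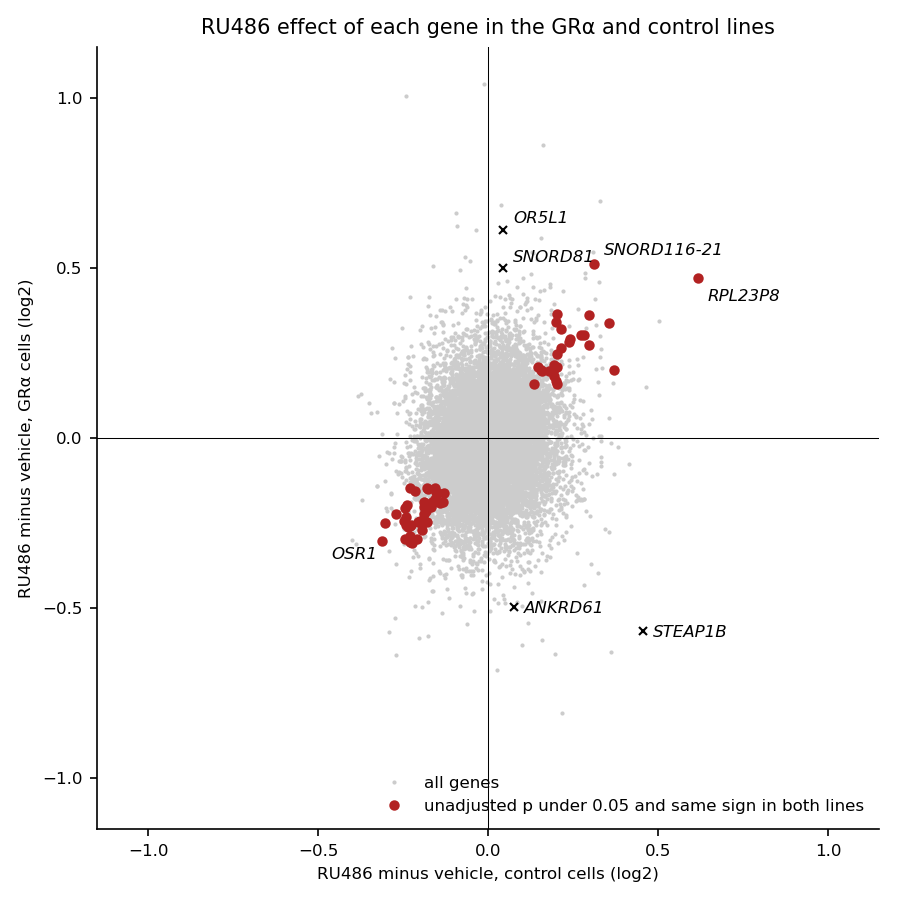
RU486 minus vehicle difference of each of 18417 genes in GRα cells (y axis, log2) against that in control cells (x axis, log2); red points are the 65 genes with an unadjusted p below 0.05 and the same sign in both lines, and crosses mark OR5L1, SNORD81, ANKRD61 and STEAP1B. The cloud is centred near 0 and is taller than it is wide, and STEAP1B lies at −0.57 in GRα cells and 0.46 in control cells.

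The same contrast was then read in control cells, which lack the added receptor; the contrasts of the lines share no array, only the estimate of spread. RU486 gave 0 calls in control cells (lowest adjusted p 0.999), where 621 genes (3.37%) stood at an unadjusted limma p below 0.05 and 921 are due by chance. Without GRα vehicle B, which is not in this contrast but enters the shared spread, the number was 997, with 369 higher and 628 lower, beside 1195 in GRα cells. The RU486 effect of GRα cells minus that of control cells gave 0 calls (lowest adjusted p 0.670; 745 genes, 4.05%, at an unadjusted p below 0.05). The average over the lines, with 5 RU486 and 6 vehicle arrays, gave 0 calls (lowest adjusted p 0.346; 1599 genes, 8.68%). At the unadjusted limit in both lines with the same sign were 65 genes (0.353%), 26 higher and 39 lower, and 15 had opposite signs. The 65 make up 4.13% of the 1572 genes of GRα cells and 10.5% of the 621 of control cells. Multiplying the shares of the lines gives 0.288% of all genes, same and opposite signs together. The shared estimate of spread can also raise the overlap, and a response common to the lines was not tested by this count. Across all 18417 genes, which are not independent replicates, the changes in the lines correlated at r = 0.16, and at 0.10 without GRα vehicle B.

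Among the 26 higher genes, RPL23P8, a ribosomal protein pseudogene, read 6.64 and 6.87 with RU486, against 6.37, 6.12 and 6.36 with vehicle in GRα cells, and 7.09, 6.82 and 6.69 with RU486, against 6.61, 6.06 and 6.08 with vehicle in control cells. The groups did not overlap in either line, and the average change was 0.54 (adjusted p = 0.346). SNORD116-21, a small nucleolar RNA of the imprinted Prader-Willi region, read 8.64 and 8.61 with RU486, against 8.28, 7.81 and 8.25 with vehicle in GRα cells, and 7.80, 7.67 and 7.51 with RU486, against 7.49, 7.32 and 7.23 with vehicle in control cells. SNORD116 copies are near-identical, so their probes can share signal. Over the 20 measured copies the median change in GRα cells was 0.13, with 4 higher and 0 lower at the unadjusted limit, beside 3.26% and 5.28% of all genes. In control cells the median was 0.10, with 2 higher and 1 lower. ACTR3C, GRIK1-AS2, TEX30, LINC01551, ZNF730 and SNORA19 differed by 0.27 to 0.36 in GRα cells and by 0.24 to 0.35 in control cells. Among the 39 lower genes, OSR1, a zinc finger factor of urogenital development, read 5.34 and 5.49 with RU486, against 5.69, 5.90 and 5.57 with vehicle in GRα cells, and 5.22, 5.34 and 5.17 with RU486, against 5.43, 5.66 and 5.58 with vehicle in control cells. OSR1 was thus about 0.3 log2 lower in each line, with no overlap and no call (average −0.31, adjusted p = 0.433). POLR2E, a subunit shared by the RNA polymerases, NOX4, an NADPH oxidase, TRPC4, a cation channel, and RING1, a Polycomb E3 ligase, differed by −0.23 to −0.30 in GRα cells and by −0.23 to −0.24 in control cells, and PLAC4, OR10H4 and MTLN by −0.24 to −0.30 and −0.25 to −0.30.

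The gene with the largest line difference among the 5 lowest unadjusted p values each way was STEAP1B, of a family of metalloreductases. It read 3.88 and 3.89 with RU486, against 4.34, 4.78 and 4.25 with vehicle in GRα cells, and 4.27, 4.53 and 4.41 with RU486, against 3.93, 4.06 and 3.85 with vehicle in control cells. The groups separated in opposite directions, a line difference of −1.02 ± 0.20 (SE; adjusted p = 0.670). ANKRD61, CEACAM20, SRL and ZAR1L followed on the lower side, and CSRNP1, EFHC2, OR5L1, PIH1D2 and KLHL41 stood on the higher side, all uncalled.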

How the data were processed

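Affymetrix arrays of biotinylated cDNA were described for 18 samples, and 17 have values; the column of GRα RU486 replicate A is empty (failed quality control, per the labels). The values are log2 expression made by the authors with RMA and tested with limma, per the submitters' processing notes; their versions and settings were not given in the sources used here, nor was a genome build. Deposited log2 values ran from 2.07 to 14.15, with array medians of 6.28 to 6.35. Of 29153 probe sets, 19460 had 1 gene symbol (19429 updated through Entrez IDs by the RefSeq table), 1754 several and 7939 none; for 769 genes with several probe sets the one with the highest mean was used, leaving 18417 genes, with no filter on low values. One limma fit (version 3.58.1, R 4.3.3) held a mean per group over 17 arrays, with 16.9 total degrees of freedom and Benjamini-Hochberg adjustment; the script was tested on simulated data.

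The labels call replicates biological without stating separate cultures, so p-values reflect only the spread among these samples, which may be technical, and the number of arrays limits precision. Deviations of same-lettered samples of different groups correlated at −0.254 to 0.324 over 40 pairs (0.324 for vehicle A and dexamethasone A in control cells, −0.042 and −0.025 for RU486 and vehicle in GRα cells); not every pair was over 0.1, so letters were not taken to pair samples. Members and gene lists were chosen with earlier results of these data known. Named were fixed receptor targets and steroidogenic genes, the 10 largest called differences each way or, with fewer than 10 calls, the 10 lowest unadjusted p values each way among genes whose arrays did not overlap, the 8 each way shared by both lines, the 5 each way that differed most between the lines, up to 15 genes that dexamethasone changed in control cells, and up to 4 members of each list with the lowest unadjusted p, some left out for length; other names were chosen after their values were seen. Alternatives were array weights, a trended prior, other samples in the fit, other thresholds, probe set rules, a replicate block and each array left out.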

Additional observations from a re-analysis of the deposited data

How the results depend on the processing

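Calls for RU486 against vehicle stayed at 0 in both lines, in their difference and in their average under all alternatives but 1: without GRα RU486 replicate B, 1 gene was called in GRα cells, SNORD81 (adjusted p = 0.0285), where the RU486 arm holds 1 array that is assumed to vary like the other groups, so leaving out an array gave 0 to 1. Among the other alternatives, the lowest adjusted p in GRα cells by limma was 0.0505 without GRα vehicle replicate C. It was 0.0801 with the trended prior and 0.0866 with the replicate block. The median RU486 difference over the 39 raised genes was 0.02 with the replicate block, and that over the 9 lowered genes 0.03. RU486 against dexamethasone gave 165 calls, 137 with the replicate block, 55 from the 8 GRα arrays alone, 54 from the groups compared alone, 83 at an adjusted p under 0.01, 78 with at least 0.5 log2, and 67 to 259 with 1 array left out (259 without GRα vehicle B). Dexamethasone in control cells gave 48 calls, 148 with array weights, 123 with the replicate block and array weights, 23 from the groups compared alone, 16 at 0.01, 15 with at least 0.5 log2, and 17 to 82 with 1 array left out. Dexamethasone in GRα cells gave 372 calls, 112 from the 8 GRα arrays, 77 from the groups compared alone, 168 with the replicate block and array weights, 171 at 0.01, 108 with at least 0.5 log2, 628 at 0.1, and 200 to 601 with 1 array left out. Where these alternatives use fewer arrays or a stricter limit, that is their construction; otherwise the cause was not tested. Among named genes, ESR1 turned from −0.08 to 0.20 with the mean of its probe sets, and the cause was not tested.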

Other observations

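Of markers of chromaffin cells, the catecholamine-making cells of the adrenal medulla, PNMT, which makes adrenaline, read 5.50 and 5.54 with RU486, 5.35, 5.48 and 5.50 with dexamethasone, and 5.87, 5.87 and 5.78 with vehicle in GRα cells. Both ligands lay below vehicle, by −0.32 ± 0.07 for RU486 (adjusted p = 0.366 by limma). Both were set against the same vehicle arrays, so the ligand differences are not independent. The list's summed level was 9.87 to 9.93 with RU486, against 9.86 to 10.01 with vehicle.

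The 10 endothelial markers differed by −0.22 to 0.17 between RU486 and vehicle in GRα cells, with TEK and TIE1 the highest at 0.16 and 0.17. KDR, a receptor for VEGF, read 4.84 and 4.98 with RU486, against 5.08, 5.18 and 5.10 with vehicle, and VWF, the von Willebrand factor, 5.01 and 5.12 with RU486, against 5.42, 5.24 and 5.19 with vehicle. Their arrays did not overlap, as for 20.4% of all genes, at adjusted p values of 0.522 and 0.585 by limma.

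Among the 4605 genes with the lowest mean levels, 188 were higher and 302 lower at an unadjusted limma p under 0.05 with RU486 in GRα cells, and among the 4604 with the highest levels 115 were higher and 136 lower, beside 3.26% higher and 5.28% lower over all genes. Without GRα vehicle B these counts were 171 and 229 for the lowest levels, and 69 and 77 for the highest. The 192 small nucleolar RNAs held 16 higher and 14 lower, or 21 and 10 without that array. Of 24 bitter taste receptor genes 2 were higher and 0 lower (2 and 2 without it), and of 338 olfactory receptor genes 18 were higher and 18 lower (13 and 20 without it).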
